A study of Mus musculus with 10 samples.

Results

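The Wnt2 lineage of the adult mouse lung mesenchyme was compared with the Axin2:Pdgfra lineage by RNA-seq of sorted cells. The comparison takes in the libraries that carry these lineage labels, 4 of the 10 in the study and 2 for each lineage. Wnt2 cells were sorted from mice of the genotype Wnt2CreERT2:R26REFYP, in which a recombinase driven by Wnt2 switches on a fluorescent reporter. Axin2:Pdgfra cells came from mice of the genotype Axin2CreERT2:tdT:PdgfraEGFP and carried both the tdT reporter, switched on by a recombinase driven by Axin2, and the EGFP reporter of Pdgfra. CreERT2 acts only in the presence of tamoxifen and marks cells that express the driver gene at that time, together with their descendants, whereas PdgfraEGFP reports the Pdgfra gene without recombination. The labels give the stage of all animals as adult, and they do not state the tamoxifen schedule, the sex or the age in weeks. Mouse line, driver gene and reporter all change with the lineage, so their parts in any difference cannot be told apart. The comparison asks which transcripts separate these 2 mesenchymal lineages. Every gene with a log2 level of 6 or more in at least 2 of the 10 libraries was kept, 14177 of 14854, and the difference is always the Wnt2 mean minus the Axin2:Pdgfra mean, so that a negative value means less in Wnt2 cells. A log2 unit is a factor of 2.

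Fibroblasts of the adult lung occupy at least a pair of distinct sites. Alveolar fibroblasts, which include the lipid-storing lipofibroblasts, lie in the walls of the air sacs beside the epithelium and are a source of growth factors for it. Adventitial fibroblasts lie in the cuffs of connective tissue around vessels and airways and produce proteoglycans, microfibrils, complement and chemokines. Smooth muscle cells, myofibroblasts and pericytes form the contractile part of the mesenchyme. Wnt2 is a secreted ligand made by lung mesenchyme, Axin2 is a feedback inhibitor that is itself a target of canonical Wnt signalling, and Pdgfra is the receptor for PDGF-A that marks much of the fibroblast compartment.

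The libraries of both lineages carried the transcripts of fibroblasts. The 24 alveolar fibroblast and lipofibroblast genes that were tested had a median level of 13.48 and 13.58 in Wnt2 libraries 1 and 2 and of 13.90 and 13.99 in Axin2:Pdgfra libraries 1 and 2. Pdgfra stood at 16.05 and 16.25 in the Wnt2 libraries and at 14.91 and 15.21 in the Axin2:Pdgfra libraries, although only the second group had been sorted by a Pdgfra reporter. The ranges did not overlap, and the difference of 1.09 ± 0.36 (log2 ± SE, here and below; limma, Benjamini-Hochberg adjusted p = 0.205; 95% interval 0.32 to 1.87) did not pass the threshold of 0.05. Wnt2 itself was at 9.67 and 10.04 in the lineage named after it and at 10.82 and 9.90 in Axin2:Pdgfra (difference -0.50 ± 0.90, adjusted p = 0.866; -2.44 to 1.43). Axin2 was at 11.29 and 11.38 against 12.04 and 9.54 (0.54 ± 0.74, adjusted p = 0.81; -1.05 to 2.13). For Wnt2 and Axin2 the groups overlapped, and the intervals reach beyond a unit in both directions for each, so the data do not show that the lineages were alike in them. The level of a driver's transcript in the adult cell need not match its activity when the label was set.

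Some properties of the libraries bear on all results. Spearman correlations across genes were 0.9284 between the Wnt2 libraries, 0.8067 between the Axin2:Pdgfra libraries and 0.7874 to 0.829 between the groups. The share of genes listed at the lowest value of a library was 2.922% and 3.191% in Wnt2 and 8.631% and 14.999% in Axin2:Pdgfra, so that 135 and 546 of the tested genes were at the lowest value in both libraries of a group. The tables hold no counts, so depth is unknown. Xist, the RNA of the inactive X chromosome, was at 17.04 and 7.80 in Wnt2 libraries 1 and 2 and at 17.47 in both Axin2:Pdgfra libraries, and the Y-linked gene Ddx3y was at 8.15 and 11.48 against the lowest value in both. Transcripts that follow sex thus differed between the Wnt2 libraries and between the lineages. Only Gria3 and Sh3bgrl among the genes reported as different lie on the X chromosome. The title of Pdgfra library 1 names EGFP rather than Pdgfra, and its lineage label is that of Pdgfra library 2. Whether the libraries of a lineage were made from different animals is not stated. The p-values rest on the spread between libraries of the same lineage, taken over all lineages of the study. They also rest on variance estimates that limma shared across genes. The spread between libraries of a lineage may be technical in part.

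Of 14177 genes, 90 differed between the lineages at an adjusted p under 0.05, which is 0.635%. Lower levels in Wnt2 cells made up most of them, with 74 genes (0.522%) that fell and 16 (0.113%) that rose. The imbalance was not present at an unadjusted p under 0.05, where 1010 genes were higher (7.12%) and 865 lower (6.1%), 1875 in all (13.2%). It was not present in the ranges either: both Wnt2 libraries lay above both Axin2:Pdgfra libraries for 3534 genes (24.9%) and below them for 3401 (24%). The median difference over all genes was 0.06. Among the genes past the threshold, none had overlapping groups, and 49 had a mean level of 8 or more in both lineages, 13 of them higher and 36 lower in Wnt2. Leaving out single libraries moved the total between 24 (without Wnt2 library 2) and 170 (without Negative library 2). Without Axin2:Pdgfra library 1 the balance turned round, to 59 genes higher and 25 lower, and 31 of the 90 were among these 84. The total was 38 without Wnt2 library 1, 84 and 26 without Axin2:Pdgfra library 1 and 2, 46 and 37 without Pdgfra library 1 and 2, and 48 and 47 without Axin2 library 1 and 2. Of the 90 calls, 15 were kept whichever of the 10 libraries was left out, and no gene changed direction. A fit of the 4 libraries alone called 18 genes (2224 at unadjusted p under 0.05). Without trend and robust estimation of the variance 42 genes passed, and only 20 of them were among the 90.

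**Figure D1:**
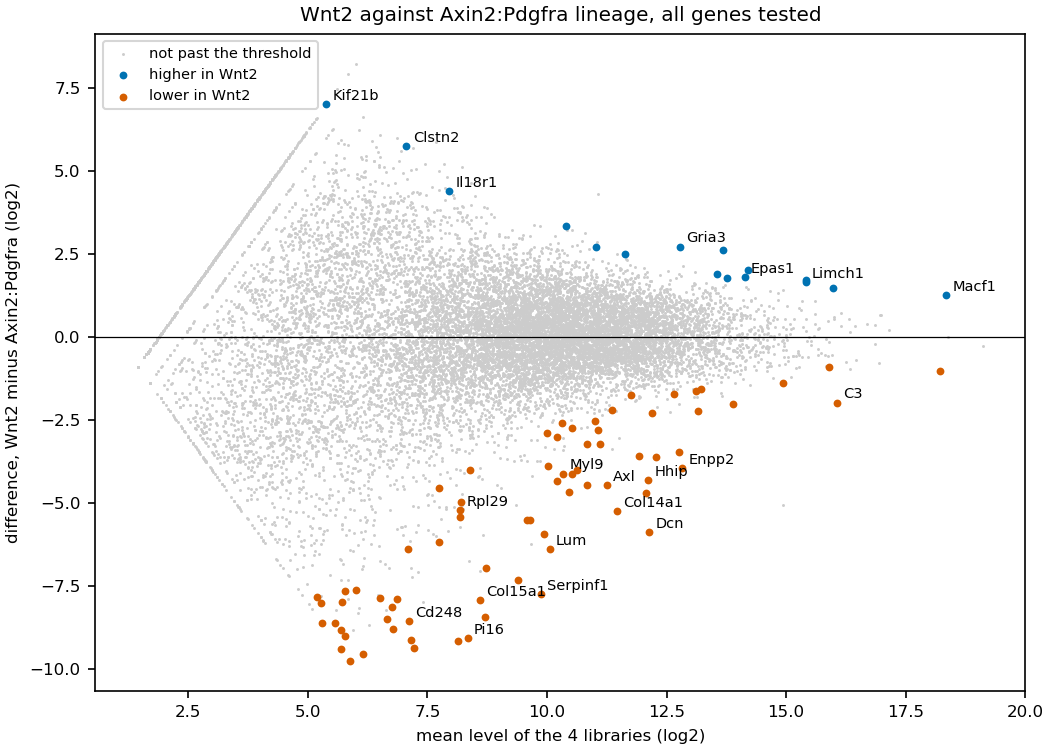
Difference between the lineages (Wnt2 minus Axin2:Pdgfra, log2, vertical axis) against the mean level of the 4 libraries (log2, horizontal axis) for the 14177 genes tested. Grey points did not pass the threshold; the 16 blue points are higher and the 74 orange points lower in Wnt2 cells, with 20 genes named, and the orange points reach further from 0 than the blue ones.

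The lower side was led by genes of adventitial fibroblasts. Of 25 such genes tested, 12 fell in Wnt2 cells and 0 rose, beside 0.522% of all genes that fell, and both Wnt2 libraries lay below both Axin2:Pdgfra libraries for 21 of 25, beside 24% of all genes. They lay above for 2, beside 24.9% of all genes, and the highest difference of a member was 3.07. At an unadjusted p under 0.05 with limma, 17 were lower and 1 higher, beside 6.1% and 7.12% of all genes. The list's median difference was -3.16 (all genes, 0.06), and its median level was 10.17 and 9.69 in Wnt2 against 13.49 and 12.87 in Axin2:Pdgfra. In libraries of sorted cells, fewer cells of a type and less RNA per cell cannot be told apart. The members that fell were Dcn, Lum, Col14a1, Serpinf1, Pi16, C3, Igfbp4, Mfap5, Cygb, Gli1, Ccl11 and Ly6a.

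Dcn encodes decorin, a small leucine-rich proteoglycan that binds collagen fibrils. Its level was 10.17 and 8.24 in the Wnt2 libraries and 15.14 and 15 in the Axin2:Pdgfra libraries, a fall of 5.86 ± 0.54 (adjusted p = 0.000128). The Axin2:Pdgfra libraries agreed closely, and both Wnt2 libraries were lower than the Pdgfra, Axin2 and Negative libraries too, which ranged from 11.04 to 14.97. Col14a1, a fibril-associated collagen, was at 9.54 and 8.15 against 14.34 and 13.80 (-5.22 ± 0.56, adjusted p = 0.000505). Serpinf1, a secreted serpin-family protein that restrains vessel growth, was at 6.46 and 5.55 against 13.97 and 13.51 (-7.73 ± 1, adjusted p = 0.00202). C3, the central component of complement, remained abundant in Wnt2 cells at 14.82 and 15.33 but was at 17.04 in both Axin2:Pdgfra libraries (-1.96 ± 0.22, adjusted p = 0.00051). These 4 genes, with Igfbp4, kept their calls in all 10 fits that left out a library.

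Pi16, a peptidase inhibitor that marks adventitial fibroblasts, was at 5.55 and 2.06 in Wnt2 and at 13.14 and 12.61 in Axin2:Pdgfra, the largest decrease of the list (-9.07 ± 1.30, adjusted p = 0.00456). The Wnt2 libraries differed by several units from each other and were the lowest of the 10. Pi16 was at 9.63 and 11.90 in the Pdgfra libraries and at 9.49 and 8.55 in the Axin2 libraries, while Negative library 0, at 6.55, was near the higher Wnt2 library and Negative library 2 was at 9.36. Mfap5, a protein of elastic microfibrils, was at 10.61 and 9.69 against 13.71 in both (-3.56 ± 0.49, adjusted p = 0.00345). Pi16 missed the threshold without Axin2:Pdgfra library 2 (adjusted p = 0.0575), and Mfap5 did so without Wnt2 library 2 (0.0687). Lum, or lumican, another leucine-rich proteoglycan, was at 6.38 and 7.35 against 13.84 and 12.65 (-6.38 ± 1.19, adjusted p = 0.0265). The Lum levels of the Pdgfra lineage, 11.68 and 13.92, lay with those of Axin2:Pdgfra, whereas the Axin2 libraries at 4.91 and 6.35 and the Negative libraries at 3.85 and 2.67 were as low as Wnt2 or lower. Low Lum was thus no property of Wnt2 cells alone.

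The remaining adventitial members that passed were the oxygen-binding globin Cygb (-5.91 ± 1.03, adjusted p = 0.0193), the eosinophil chemokine Ccl11 (-6.95 ± 1.29, 0.0262), the Hedgehog effector Gli1 (-7.86 ± 1.58, 0.0397) and the surface antigen Ly6a (-1.72 ± 0.36, 0.0468). Ly6a belongs to a family of close paralogs, between which the authors' counting could split reads. Its call also ended when a trend of the difference with transcript length was removed (adjusted p = 0.0954). Adh7, a retinol-oxidising alcohol dehydrogenase, averaged 1.53 against 10.35 but had an adjusted p of 0.0548. Il33, an alarmin cytokine, averaged 7.30 against 10.46 (adjusted p = 0.206), and Has1, a hyaluronan synthase, 8.12 against 11.20 (0.316). Without single libraries the number of adventitial genes that fell was 6 (without Wnt2 library 2 or Axin2:Pdgfra library 2), 7 (without Axin2:Pdgfra library 1, Pdgfra library 1 or Pdgfra library 2), 8 (without Wnt2 library 1), 9 (without either Axin2 library) or 13 (without either Negative library). With a variance model without trend and robust estimation it was 3.

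**Figure D2:**
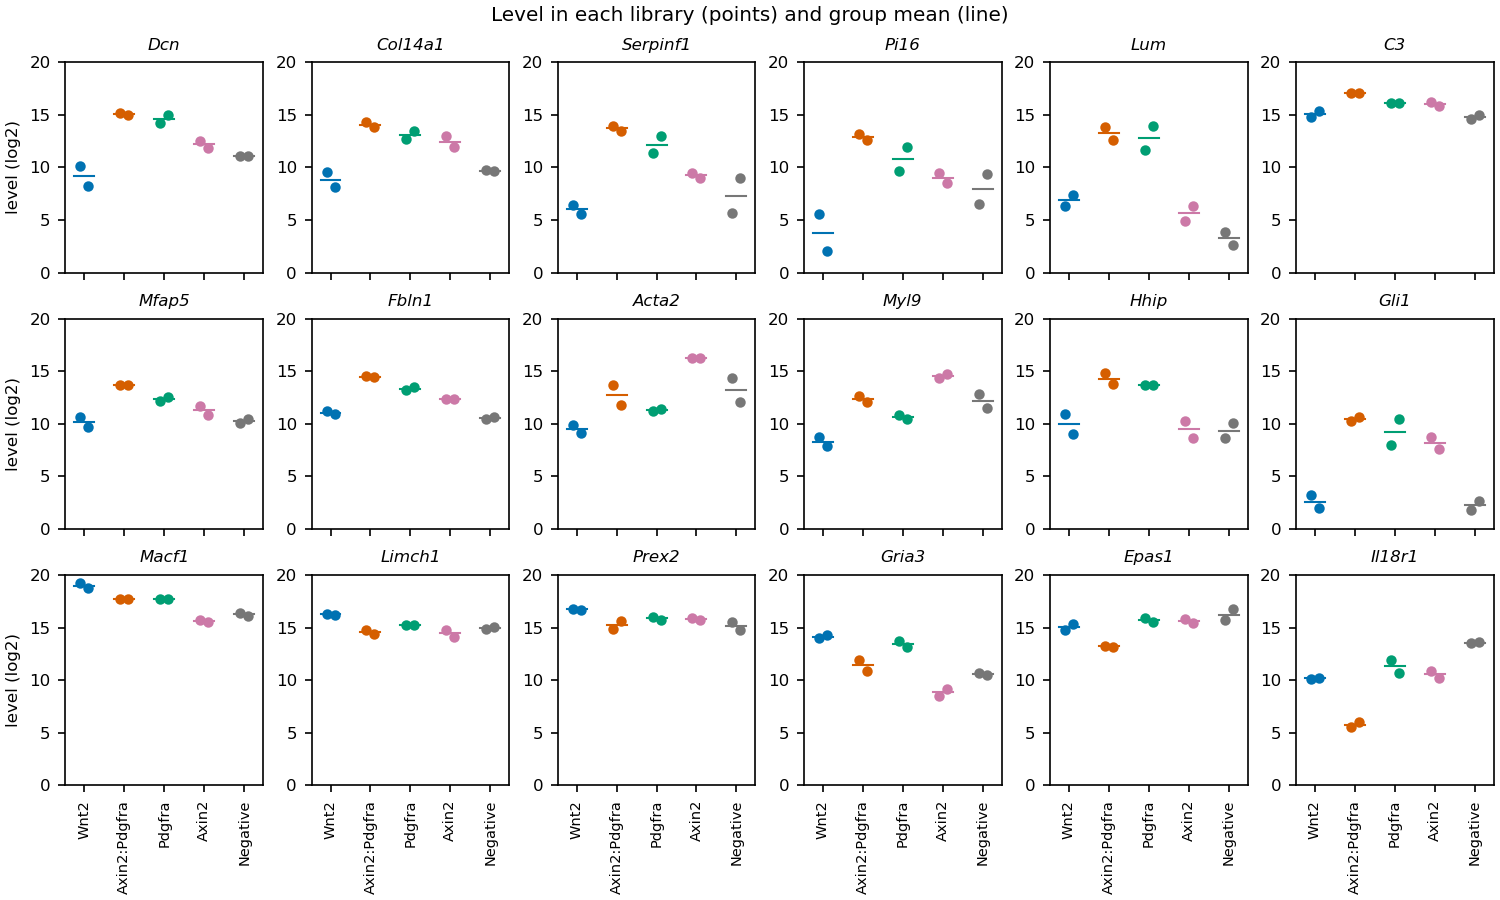
Levels (log2, vertical axis) of 18 genes in all 10 libraries, by lineage on the horizontal axis; points are libraries and lines are group means of 2. Dcn, Col14a1, Serpinf1, Pi16, C3, Mfap5 and Myl9 show Wnt2 below Axin2:Pdgfra with little spread within Axin2:Pdgfra, while Macf1, Limch1 and Prex2 show both Wnt2 libraries above every other library.

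Other matrix genes followed the same direction where they passed. Among 30 elastic fibre, microfibril and proteoglycan genes, 5 fell and 0 rose, beside 0.522% of all genes that fell, with a median of -0.87. At an unadjusted p under 0.05 with limma, 15 were lower and 2 higher, beside 6.1% and 7.12% of all genes. The 5 were found at the adjusted threshold. Besides Dcn, Lum and Mfap5 they were Fbln1 and Aspn. Fbln1, or fibulin-1, a glycoprotein of basement membranes and elastic fibres, was at 11.17 and 10.88 in Wnt2 and at 14.52 and 14.45 in Axin2:Pdgfra (-3.46 ± 0.36, adjusted p = 0.000418), with both groups tight and far apart. Aspn, or asporin, was at 9.68 and 6.59 against 13.29 and 12.28 (-4.65 ± 0.98, adjusted p = 0.0497). The count for this list fell to 2 without Wnt2 library 2 and to 3 without either Axin2:Pdgfra or either Pdgfra library. Values of the versican gene Vcan (11.25 against 13.34 on average, adjusted p = 0.254) and of the elastin-associated Fbln2 (7.66 against 10.66, 0.384), Emilin2 (5.85 against 10.10, 0.302) and Mfap2 (7.10 against 9.34, 0.253) lay below as well but did not pass.

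Of 30 collagen chains, 2 fell and 0 rose, beside 0.522% of all genes that fell, and the median was -0.67. At an unadjusted p under 0.05 with limma, 13 were lower and 2 higher, beside 6.1% and 7.12% of all genes. Col7a1 was on the higher side, at 7.88 against 4.42 on average (adjusted p = 0.333). Col15a1, a proteoglycan-bearing collagen of basement membrane zones, was at 4.74 and 4.55 in Wnt2 and at 12.51 and 12.62 in Axin2:Pdgfra (-7.92 ± 1.03, adjusted p = 0.00202), and this call, like that of Col14a1, held in all 10 fits. Both Wnt2 values were below those of every other library, the next being 6.68 in Negative library 2. The count for collagens rose to 5 with library weights, with the length trend removed, and without either Negative library. None of 18 genes for collagen processing passed (1 higher and 6 lower at an unadjusted p under 0.05, beside 7.12% and 6.1% of all genes). The nearest was the collagen chaperone Serpinh1 at 12.17 against 13.98 (-1.81 ± 0.42, adjusted p = 0.0706). Of 29 laminins, nidogens and integrins 0 passed with limma (5 higher and 4 lower at an unadjusted p under 0.05, beside the same shares) and the median was 0.00. Among 25 matrix proteases and inhibitors, 1 fell, beside 0.522% of all genes that fell. It was the gelatinase Mmp2, at 13.12 and 12.65 against 14.95 and 14.84 (-2.01 ± 0.37, adjusted p = 0.0262). It lost the call without any one of the Wnt2, Axin2:Pdgfra and Axin2 libraries (highest adjusted p 0.29, without Wnt2 library 2).

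Among the binding proteins for insulin-like growth factors, which hold IGF in the matrix and limit its access to the receptor, 3 fell, as did a protease that releases it and a ligand. Of 10 genes of the IGF axis, 4 fell and 0 rose (median -0.65), beside 0.522% of all genes that fell. Igfbp4 was at 10.89 and 10.04 in Wnt2 and at 14.03 and 14.13 in Axin2:Pdgfra (-3.61 ± 0.42, adjusted p = 0.000615). Igfbp5 was at 11.20 and 8.26 against 15.01 and 13.83 (-4.69 ± 0.69, adjusted p = 0.00531). In both genes the Wnt2 libraries lay below every Axin2:Pdgfra library, with a wider spread for Igfbp5, which missed the threshold without Axin2:Pdgfra library 1 (adjusted p = 0.0574). Igfbp6 was at 7.68 and 8.50 against 11.49 and 12.42 (-3.87 ± 0.71, adjusted p = 0.0256). The protease Pappa2, which cleaves IGF binding proteins, was at 4.83 and at the lowest value of the library in Wnt2, against 10.88 and 10.71 (adjusted p = 0.0451), and was also high in the Pdgfra lineage at 11.75 and 10.60. Igf2, from the list of 17 growth factors for epithelium and endothelium, was at 5 and 5.92 against 10.37 and 9.64 (-4.55 ± 0.88, adjusted p = 0.0315). The abundant Igfbp3 (14.5 against 15 on average, -0.50 ± 0.31, adjusted p = 0.531) and Igfbp7 (13.79 against 14.51, -0.72 ± 0.33, 0.369) did not pass. The count of the list was 2 or 3 without any one library of Wnt2, Axin2:Pdgfra, Pdgfra or Axin2. Igf2 lost its call in each of these 8 fits.

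Some genes of smooth muscle fell in Wnt2 cells as well. Of 20 smooth muscle and myofibroblast genes, 6 fell and 0 rose (median -2.57), beside 0.522% of all genes that fell, and 13 had both Wnt2 libraries below both Axin2:Pdgfra libraries, beside 24% of all genes. Myl9, the regulatory light chain of smooth muscle myosin, was at 8.70 and 7.88 in Wnt2 and at 12.68 and 12.11 in Axin2:Pdgfra (-4.10 ± 0.54, adjusted p = 0.00202), and its call held in all 10 fits. Acta2, smooth muscle actin, was at 9.87 and 9.14 against 13.65 and 11.80 (-3.22 ± 0.66, adjusted p = 0.0405), with the Axin2 lineage far above both at 16.28 and 16.25. Actg2, the enteric smooth muscle actin, was at 6.89 and 2.45 against 11.74 and 9.91 (-6.16 ± 1.13, adjusted p = 0.0256). Wnt2 libraries were the lowest of all 10 for Myl9, Acta2 and Actg2, and Axin2:Pdgfra was in the middle of the range. Reads from the near-identical coding sequences of Acta2 and Actg2 could be split between them. Mustn1, a small nuclear protein of muscle, was at 8.11 and 5.55 against 12.91 and 11.76 (-5.50 ± 0.83, adjusted p = 0.00621). The other members that passed, Aspn and the Hedgehog decoy receptor Hhip, are no parts of the contractile apparatus.

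The smooth muscle program is controlled by serum response factor, which binds the CArG box, and the Myl9 promoter is shown because Myl9 was the most stable of the contractile differences. The 250 bases before its start (RefSeq, GRCm38.p6, chr2:156775214-156775463, plus strand, 5′ to 3′) hold 1 exact match to the CArG box, in capitals, which begins 161 bases before the start.
Myl9: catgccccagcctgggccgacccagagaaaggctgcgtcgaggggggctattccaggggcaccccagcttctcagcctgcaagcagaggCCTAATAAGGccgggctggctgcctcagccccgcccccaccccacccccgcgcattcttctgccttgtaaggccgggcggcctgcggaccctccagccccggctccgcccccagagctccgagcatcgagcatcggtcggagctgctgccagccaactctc
The box was searched on both strands, which is the same search since its consensus, CCWWWWWWGG with W for A or T, is palindromic. Only exact matches were counted, so a gene without one may still hold boxes with a substitution. An exact match was found in 482 of 32851 promoter windows (1.467%). Of the smooth muscle and myofibroblast list members past the threshold, which include Aspn and Hhip, 5 have a promoter window. In 1 of these 5, Myl9 itself, any window held a match, a count by gene that is not like the share of single windows. The 250 bases before the start of Acta2 held 0 exact matches. A match is a description of the letters and no evidence of binding.

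Several contractile genes did not differ detectably. Those with the largest differences that missed the threshold were Cdh4, a cadherin (5.69 against 11.63 on average, adjusted p = 0.175), the cofactor Myocd (3.36 against 8.57, 0.149), the actin-binding Synpo2 (6.12 against 10.08, 0.243) and, in the opposite direction, the potassium channel subunit Kcnmb1 (7.71 against 2.38, 0.222). Synpo2 was at 9.54 and 2.70 in the Wnt2 libraries, so its mean rested on 1 of them. The calls for Acta2 and Aspn ended when the length trend was removed (adjusted p = 0.0512 and 0.0549). The number of contractile genes that fell was 1 without Wnt2 library 2 or Axin2:Pdgfra library 1, 2 without either Pdgfra library, 3 without either Axin2 library or Axin2:Pdgfra library 2, and 0 in the fit of the 4 libraries alone or without trend and robust estimation.

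Pericyte genes split. Of 18 tested, 3 fell and 0 rose, beside 0.522% of all genes that fell. Both Wnt2 libraries lay above both Axin2:Pdgfra libraries for 7 and below them for 7, beside 24.9% and 24% of all genes. The median difference was 0.48. The median level of the list was nevertheless lower in Wnt2 (8.95 and 8.31) than in Axin2:Pdgfra (10.65 and 9.96), so these measures differ in sign. Kcnj8 and Abcc9, the pore and the regulatory subunit of the ATP-sensitive potassium channel of mural cells, both fell. Kcnj8 was at 5.69 and 8.11 against 12.50 and 12.29 (-5.49 ± 1.08, adjusted p = 0.0347), and Abcc9 at 9.01 and 7.92 against 13.20 and 11.93 (-4.10 ± 0.70, 0.0161). Pdgfrb, the PDGF-B receptor, was at 10.86 and 10.94 against 12.61 and 12.67 (-1.74 ± 0.31, adjusted p = 0.0208). Within each lineage the Pdgfrb libraries agreed to a small fraction of a unit, and both lineages were well below Axin2 (16.32 and 16.94) and Negative (15.49 and 15.02). Pdgfrb lost its call without any one of the Wnt2 or Axin2:Pdgfra libraries (adjusted p up to 0.124). The count of the list was 0 without Axin2:Pdgfra library 1 or Wnt2 library 2 and 1 without Axin2:Pdgfra library 2.

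**Figure D3:**
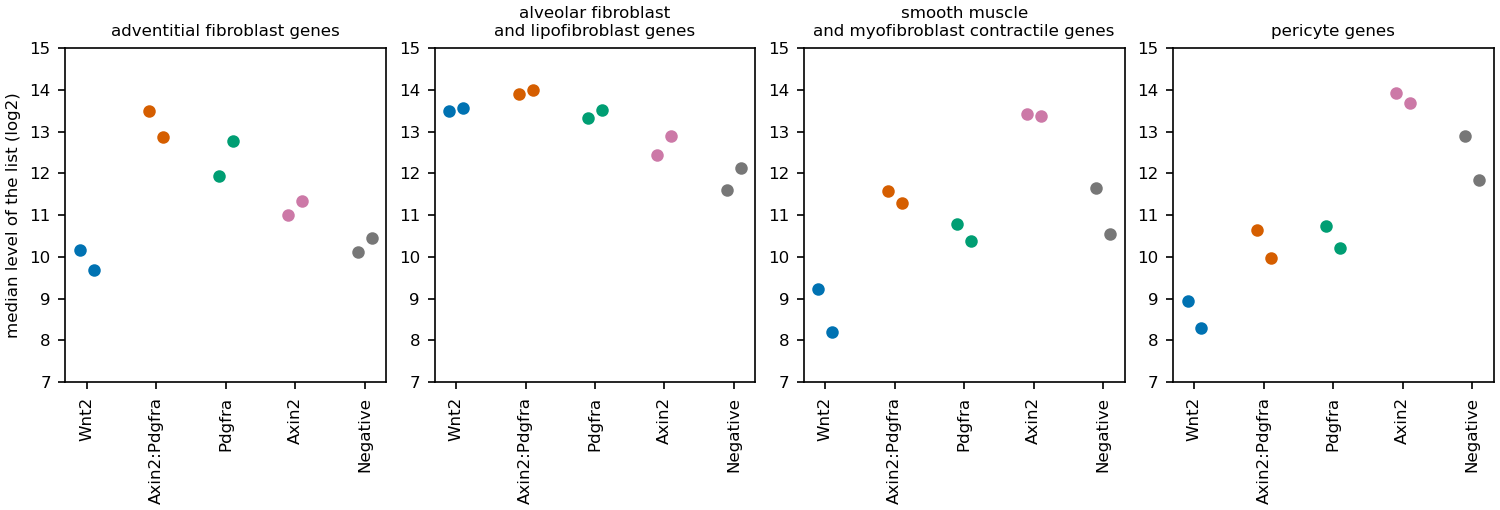
Median level (log2, vertical axis) of 4 gene lists in each library, by lineage on the horizontal axis; each point is a library. The adventitial medians are 9.69 and 10.17 in Wnt2 and 12.87 and 13.49 in Axin2:Pdgfra, whereas the alveolar medians of both lineages lie between 13.48 and 13.99; the contractile and pericyte medians are highest in Axin2.

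Signalling pathways were described by ligands, receptors and targets. In the Hedgehog pathway, in which secreted ligands relieve the repression of Smo and so activate Gli factors, 2 of 11 genes fell and 0 rose (median -1.53), beside 0.522% of all genes that fell, and 9 had both Wnt2 libraries below both Axin2:Pdgfra libraries, beside 24% of all genes. The genes that fell, Gli1 and Hhip, are both feedback targets of the pathway. Gli1 was at 3.23 and 1.95 in Wnt2 and at 10.29 and 10.60 in Axin2:Pdgfra (adjusted p = 0.0397). Hhip was at 10.90 and 9.04 against 14.79 and 13.76 (-4.30 ± 0.73, adjusted p = 0.0161), and the Axin2 and Negative libraries, from 8.61 to 10.28, were as low as Wnt2. High Hhip therefore went with Axin2:Pdgfra and Pdgfra (13.69 and 13.68). Among coreceptors, Cdon averaged 6.73 against 11.19 (adjusted p = 0.237), Boc 11.57 against 13.44 (0.236) and Gas1 8.93 against 10.94 (0.253). The count of 2 fell to 0 without either Pdgfra library, either Axin2:Pdgfra library or Wnt2 library 2, and to 1 without Wnt2 library 1 or either Axin2 library.

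Of 18 genes for TGF-beta ligands, latency proteins and targets, 3 fell and 0 rose (median -0.78), beside 0.522% of all genes that fell. They included 2 thrombospondins, of which Thbs1 can release TGF-beta from its latent complex. Thbs1 was at 14.45 and 14.03 against 15.56 and 15.66 (-1.37 ± 0.28, adjusted p = 0.0405). Thbs2 was at the lowest value in both Wnt2 libraries and at 10.47 and 11.03 in Axin2:Pdgfra (adjusted p = 0.0073), for which no fold is given. Ltbp2, a latent TGF-beta binding protein, was at 10.63 and 9.89 against 12.42 and 12.51 (-2.20 ± 0.45, adjusted p = 0.0403). The secreted target Tgfbi averaged 6.55 against 12.77 and missed the threshold narrowly (adjusted p = 0.0501), and the ligand Tgfb3 averaged 10.56 against 12.32 (0.182). The count of the list was 0 without Wnt2 library 2 or Axin2:Pdgfra library 2, 1 without Axin2:Pdgfra library 1, either Axin2 or either Pdgfra library, and 5 without either Negative library.

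In the PDGF family, Pdgfrb was the only one of 7 genes past the threshold, beside 0.522% of all genes that fell. The decoy-like receptor Pdgfrl averaged 5.32 against 11.04 (adjusted p = 0.0742), the ligands Pdgfc 3.19 against 9.05 (0.291) and Pdgfd 5.59 against 9.33 (0.303), and the ligand Pdgfa 9.43 against 7.70 (0.29). Pdgfra, described above, passed only without Negative library 0 (adjusted p = 0.0496). Its direction was opposite to that of Pdgfrb.

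Wnt pathway genes gave 0 calls with limma among 15 canonical targets (median -1.17; 0 higher and 4 lower at an unadjusted p under 0.05), 12 ligands and R-spondins (median -2.42; 0 and 3) and 16 receptors and secreted antagonists (median -0.25; 0 and 3). The shares over all genes at that unadjusted threshold were 7.12% higher and 6.1% lower. The largest differences were on the lower side. Lgr5, the R-spondin receptor and Wnt target, was at 4.07 and at the lowest value in Wnt2 and at 11.52 and 9.96 in Axin2:Pdgfra (adjusted p = 0.0533). The Pdgfra lineage had Lgr5 at 9.80 and 9.09, and Axin2 and Negative were at 3.96 or less, so high Lgr5 went with the Pdgfra-labelled lineages. Lgr5 passed the threshold with library weights (adjusted p = 0.0311), with the length trend removed (0.0467) and without Negative library 0 (0.0469) or 2 (0.0446). It also passed with a replicate block in the limma fit (0.0458). The ligands Wnt11 (2.49 against 8.30 on average, adjusted p = 0.253) and Wnt2b (7.72 against 10.67, 0.311), the receptor Fzd2 (5.14 against 9.87, 0.201) and the antagonist Sfrp4 (2.86 against 9.50, 0.163) did not pass. Fzd6 was on the higher side at 7.52 against 4.26 (0.509).

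FGF, BMP, Notch and IL6 family genes gave 0 calls with limma among 11, 21, 15 and 12 genes, with medians of -0.21, -0.39, -0.09 and -0.82. At an unadjusted p under 0.05, 1 and 2 FGF genes, 0 and 5 BMP genes, 2 and 2 Notch genes and 1 and 4 IL6 family genes were higher and lower. Among all genes these shares were 7.12% and 6.1%. Fgf18, a ligand made by mesenchyme, averaged 5.17 against 10.09 (-4.92 ± 1.23, adjusted p = 0.0957), Fgfr2 9.94 against 11.72 (0.343), and Fgf1 12.30 against 10.69 (1.61 ± 0.53, 0.201). Gdf10, a BMP-family ligand, averaged 2.92 against 9.18 (adjusted p = 0.144). Hey1, a Notch effector, averaged 9.98 against 6.49 (3.49 ± 0.84, adjusted p = 0.0805) and passed with library weights (0.0328) and with a replicate block (0.0481). Il6 averaged 6.93 against 9.94 (adjusted p = 0.427) and Jak2 11.28 against 9.84 (0.244). With 2 libraries a group these intervals are wide, and a missed threshold does not show that the lineages were alike.

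Of 17 stromal chemokines and cytokines, Ccl11 and Cxcl1 fell and 0 rose (median -1.21), beside 0.522% of all genes that fell. Ccl11 was at 4.07 and 6.43 against 12.26 and 12.14. Cxcl1, which attracts neutrophils, was at 9.89 and 9.45 against 12.38 and 12.55 (-2.80 ± 0.50, adjusted p = 0.023). Axin2:Pdgfra libraries agreed closely in both genes, and the Pdgfra and Axin2 lineages stood nearer to them than to Wnt2. Negative libraries 0 and 2 were at 9.60 and 9.80 for Cxcl1, as low as Wnt2, and at 4.32 and 8.76 for Ccl11. Low Cxcl1 was thus no property of Wnt2 cells alone. The count fell to 0 without either Wnt2 or either Axin2:Pdgfra library or Pdgfra library 2, and to 1 without Pdgfra library 1 or either Axin2 library. Of 14 complement and innate immune genes, C3 and C4b fell and 0 rose (median -0.88), beside the same 0.522%. C4b was at 11.90 and 12.18 against 14.37 and 14.16 (-2.22 ± 0.33, adjusted p = 0.00621). C4b has a near-identical copy, between which reads could be split, and its call ended without Wnt2 library 1 (adjusted p = 0.0888), Wnt2 library 2 (0.0517) or Axin2:Pdgfra library 2 (0.0563). Among 27 axon guidance genes, 1 fell, beside 0.522% of all genes that fell. It was Ntn1, a netrin (9.33 and 9 against 12.40 and 11.40, -2.73 ± 0.55, adjusted p = 0.0397). The Ntn1 call was lost without any one library of Wnt2, Axin2:Pdgfra, Pdgfra or Axin2. Lists of 29 transcription factors (median 0.23), 14 genes of retinoid metabolism (-0.45) and 14 of prostaglandin synthesis and reception (0.15) had 0 calls with limma, and 3 and 4, 0 and 4, and 1 and 1 genes higher and lower at an unadjusted p under 0.05. Over all genes, 7.12% were higher and 6.1% lower at that threshold.

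**Figure D4:**
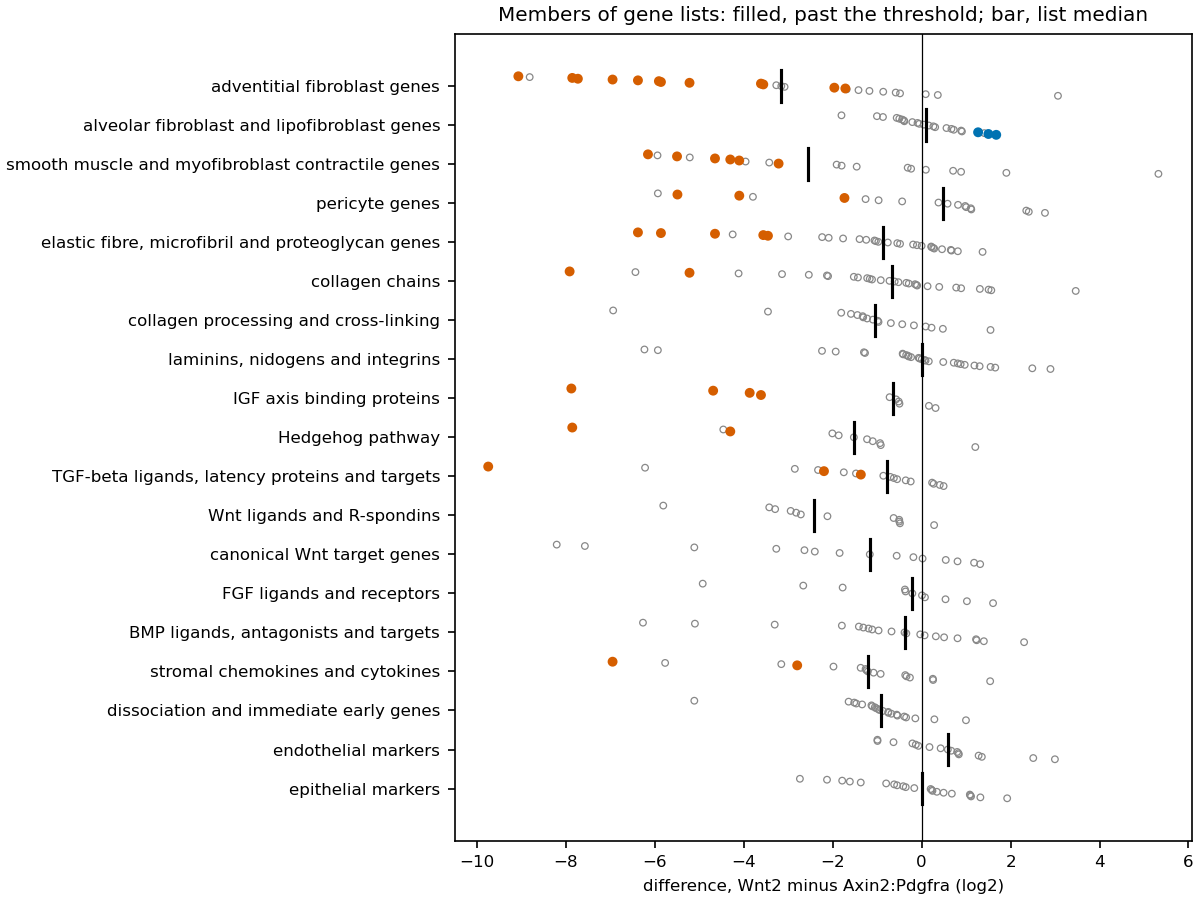
Differences (Wnt2 minus Axin2:Pdgfra, log2, horizontal axis) of the tested members of 19 gene lists (vertical axis); each point is a gene, filled where it passed the threshold, and the bar is the list's median. The adventitial list holds 12 filled points left of 0 and the alveolar list 3 right of 0; in the pericyte list the median is right of 0 although all 3 filled points are left of it.

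Genes of alveolar fibroblasts and lipofibroblasts showed another pattern. Of 24 tested, 3 rose and 0 fell in Wnt2 cells, beside 0.113% of all genes that rose. The median difference was 0.10, near the 0.06 of all genes. The median level of the list was lower in Wnt2 (13.48 and 13.58) than in Axin2:Pdgfra (13.90 and 13.99), so these measures differ in sign. Macf1, a giant linker of microtubules and actin, was at 19.25 and 18.72 in Wnt2 and at 17.72 in both Axin2:Pdgfra libraries (1.27 ± 0.18, adjusted p = 0.00362). Macf1 lies near the top of the scale, where distributions made alike across libraries fix a value by its gene's rank, so its difference depends on the gaps between the top values. Limch1, an activator of nonmuscle myosin, was at 16.32 and 16.17 against 14.78 and 14.37 (1.68 ± 0.26, adjusted p = 0.00659). Prex2, a guanine nucleotide exchange factor for Rac, was at 16.80 and 16.68 against 14.88 and 15.60 (1.5 ± 0.27, adjusted p = 0.023). In all 3 genes the Wnt2 libraries were the highest of the 10. Their longest transcripts (23495, 5903 and 11053 nt) lie in the longest of 5 length groups, which holds 11 of the 16 genes that rose. Nebl, an actin-binding nebulin relative, was at 15.41 and 15.34 against 13.86 and 14.08 (1.41 ± 0.33) but had an adjusted p of 0.0751. Adh1, an alcohol dehydrogenase, was the member with the lowest difference, at 12.24 against 14.05 on average (-1.80 ± 0.42, adjusted p = 0.0715). Macf1 missed the threshold without Axin2:Pdgfra library 2 (adjusted p = 0.0587). Limch1 missed it without Wnt2 library 1 (0.0868), Wnt2 library 2 (0.0519) or Axin2:Pdgfra library 2 (0.108), and Prex2 in 7 of the 10 fits and with the length trend removed (0.106).

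For some genes the interval of the difference was narrow and near 0. The 95% interval of the difference lay within 1 log2 unit of 0 for 268 of 14177 genes (1.89%), among them 5 of 24 alveolar fibroblast genes, 6 of 29 laminins, nidogens and integrins, 5 of 30 elastic fibre and proteoglycan genes and 1 of 25 adventitial genes. The narrowest intervals among list members were those of Bgn, Npnt, Serping1, Aldh1a1, Nid1, Itgb1, Fn1, Col4a1, Inmt and Twsg1. The interval of Serping1, -0.97 to -0.08, did not include 0, and both its Wnt2 libraries lay below both Axin2:Pdgfra libraries. Inmt, a methyltransferase of alveolar fibroblasts, was at 15.61 and 15.60 in Wnt2 and at 15.48 and 15.64 in Axin2:Pdgfra (0.05 ± 0.25; -0.48 to 0.58). Npnt, or nephronectin, the integrin ligand of alveolar basement membranes, was at 16.68 and 16.14 against 16.17 and 16.32 (0.16 ± 0.21; -0.29 to 0.61). Biglycan (Bgn), a relative of decorin, was at 16.74 and 16.80 against 17.13 and 16.80 (-0.19 ± 0.18; -0.58 to 0.20), so the leucine-rich proteoglycans did not all fall. Fibronectin (Fn1) was at 17.47 and 17.04 against 16.94 and 17.13 (0.22 ± 0.23; -0.28 to 0.72). The direction of these small differences changed for Fn1, Itgb1, Nid1 and Npnt with the length trend removed. The number of genes with such intervals was 109 and 137 without Axin2:Pdgfra library 1 and 2 and 87 and 78 without Wnt2 library 1 and 2, and it was 0 without trend and robust estimation of the variance.

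Beyond the alveolar list, 13 genes rose in Wnt2 cells, and 1 of them, ENSMUSG00000019769, had no symbol in the tables used. Gria3, an AMPA-type glutamate receptor subunit on the X chromosome, was at 14.02 and 14.27 in Wnt2 and at 11.93 and 10.90 in Axin2:Pdgfra (2.73 ± 0.49, adjusted p = 0.0236). Its levels in the Pdgfra lineage, 13.72 and 13.12, lay near those of Wnt2, and those of Axin2 (8.46 and 9.19) lay below both. Map3k20, a stress-activated kinase, was at 14.98 and 15.47 against 12.80 and 13.59 (2.03 ± 0.31, adjusted p = 0.00688). Mapt, the microtubule protein tau, was at 12.78 and 13.01 against 10.82 and 9.95 (2.51 ± 0.46, adjusted p = 0.0256), and Zbtb20, a transcriptional repressor, at 16.28 in both against 14.54 and 14.59 (1.72 ± 0.33, 0.0312). For Gria3, Mapt and Zbtb20 the Wnt2 mean was the highest of the 5 lineages, as it was for 11 of the 16 genes that rose. That count is raised by the choice of genes with Wnt2 above Axin2:Pdgfra, and it describes the pattern without a test.

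Many of the genes that rose, Mapt and Zbtb20 included, had low levels in Axin2:Pdgfra. Epas1, the hypoxia-inducible factor HIF2-alpha, was at 14.80 and 15.29 in Wnt2 and at 13.27 and 13.18 in Axin2:Pdgfra (1.82 ± 0.31, adjusted p = 0.0165), with all other libraries between 15.45 and 16.74. Il18r1, a subunit of the interleukin 18 receptor, was at 10.14 and 10.19 against 5.50 and 6.01 (4.41 ± 0.66, adjusted p = 0.00621), with the other libraries between 10.21 and 13.62. Clstn2, a calsyntenin, was at 9.54 and 10.34 against 3.62 and 4.74 (5.76 ± 1.04, adjusted p = 0.023). Kif21b, a kinesin, was at 8.34 and 9.46 against the lowest value in both Axin2:Pdgfra libraries (adjusted p = 0.0316), and no fold is given. In 10 of the 16 genes that rose, Axin2:Pdgfra had the lowest mean of the 5 lineages, and some of these also had the highest mean in Wnt2. This count is raised by the same choice of genes and was not tested. Both Axin2:Pdgfra libraries were the lowest of the 10 for Epas1, Il18r1, Kif21b, Clstn2, Akap5, Gxylt1, Mapt and Zbtb20, among others. Further genes that rose were Akap5, an anchoring protein of kinase A (2.73 ± 0.56, adjusted p = 0.0403), Gxylt1, a xylosyltransferase of Notch glycans (3.35 ± 0.68, 0.0397), and Sh3bgrl (2.62 ± 0.44, 0.0143). The calls of Akap5, Gxylt1 and Zbtb20 ended with the length trend removed (adjusted p = 0.0678, 0.0643 and 0.14). Il18r1 and Map3k20 kept their calls in 8 of 10 fits without a library and Epas1 and Sh3bgrl in 7. Gria3 kept it in 5, Clstn2, Akap5 and Zbtb20 in 4, Mapt and Gxylt1 in 3 and Kif21b in 2, and Kif21b also lost its call (adjusted p = 0.0504) with a common floor, in which every value under the highest floor of a library is raised to it. The 16 genes that rose came down to 1 without Wnt2 library 2, 3 without Wnt2 library 1, 6 without Axin2:Pdgfra library 2, and 9 or 10 without a Pdgfra or Axin2 library, and increased to 59 without Axin2:Pdgfra library 1 and to 47 and 45 without Negative library 0 and 2.

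On the lower side, the smallest p-values outside the fixed matrix lists belonged to Axl, Enpp2, Upk1b, Cd248 and Olfml2b, all kept in all 10 fits. Axl, a receptor tyrosine kinase for Gas6, was at 9.24 and 8.81 in Wnt2 and at 13.16 and 13.78 in Axin2:Pdgfra (-4.44 ± 0.39, adjusted p = 0.000128), and its other libraries lay between 12.58 and 15.32. Enpp2, or autotaxin, which makes lysophosphatidic acid, was at 11.19 and 10.53 against 14.96 and 14.61 (-3.93 ± 0.36, adjusted p = 0.000128). Both genes had their lowest levels of the 10 libraries in Wnt2. Cd248, or endosialin, a stromal surface glycoprotein, was at 3.70 and 2.01 against 11.49 and 11.29 (-8.54 ± 0.94, adjusted p = 0.00051). Olfml2b, an olfactomedin-like matrix protein, was at 5.08 and 2.06 against 12.65 and 12.77 (-9.14 ± 1.02, adjusted p = 0.00051). Low Cd248 and Olfml2b were again seen in Wnt2 alone, the other 6 libraries ranging from 8.88 to 12.31 for Cd248 and from 7.99 to 12.57 for Olfml2b. Clip3 (-4.33 ± 0.50, adjusted p = 0.000575), a microtubule-binding protein, and Fndc1 (-4.44 ± 0.50, 0.00051), a fibronectin-domain protein, complete the 15 calls kept in every fit and were named after their values were seen.

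The largest decreases included several surface receptors and transporters. Scara5, a ferritin receptor, was at 4.19 and at the lowest value in Wnt2 against 11.29 and 12.12 (adjusted p = 0.0256), and Scara3, another scavenger receptor, was at the lowest value and 1.55 against 11.01 and 9.54 (0.0312). Adcyap1r1, the receptor for the peptide PACAP, was at 1.75 and 3.35 against 11.12 and 12.66 (-9.34 ± 1.68, adjusted p = 0.023). Cacna1g, a T-type calcium channel, Slco2b1, an organic anion transporter, and Iglon5, an adhesion molecule, each had 1 Wnt2 library at the lowest value and Axin2:Pdgfra levels of 9.01 to 12.10. Cyp2e1, a cytochrome P450, was at 3.70 and 5.29 against 13.66 and 12.18 (-8.43 ± 1.39, adjusted p = 0.0129), and Eno2, an enolase, at 1.55 and 3.85 against 11.09 and 10.55 (-8.12 ± 1.56, 0.0312). Cilp, a matrix protein of the cartilage intermediate layer, Ccdc3 and Srgap3 completed the 15 largest among genes above the lowest value in at least 1 Wnt2 library, predicted genes left out. Low values near the bottom of the scale make these differences depend on where each library's floor lies, and the Wnt2 libraries had the lower floor. With every value under the highest floor raised to it, 78 genes passed, 76 of them among the 90, and Scara3, Cilp, Ccdc3, Cacna1g, Slco2b1 and Srgap3 were among those that did not (adjusted p = 0.0504 to 0.057). Besides Thbs2, 2 genes were at the lowest value in both Wnt2 libraries: Entpd2, an ecto-nucleotidase (9.25 and 9.96 in Axin2:Pdgfra, adjusted p = 0.022), and Armh4 (11.04 and 9.76, 0.0316). Calls for most of these low genes ended without any one of several libraries, Cacna1g, Cilp, Ccdc3, Eno2, Scara3, Slco2b1 and Armh4 being kept in 2 of 10 fits.

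Among the 74 genes that fell, the Wnt2 mean was below the means of all 4 other lineages for 61, and the Axin2:Pdgfra mean was above all others for 45, so that many genes met both conditions. Both counts are raised by the choice of genes with Wnt2 below Axin2:Pdgfra, and they describe the pattern without a test. The Pdgfra, Axin2 and Negative libraries come from the same line as Axin2:Pdgfra, so a difference of line would fall on the same side as low Wnt2, and the lineage and the line cannot be told apart here. Libraries also carried 2 different second index sequences, 1 of each kind in either lineage. Within both same-index pairs of libraries, 73 of the 74 were lower by more than 1 log2 unit, and with the index as a factor 109 genes passed, 89 of them among the 90.

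Of the markers of other cell types, 1 mesothelial gene passed the threshold. The 17 endothelial markers had log2 summed levels of 15.12 and 15.37 in Wnt2 and of 14.78 and 14.87 in Axin2:Pdgfra, with 0 of 17 past the threshold (3 higher and 0 lower at an unadjusted p under 0.05, beside 7.12% and 6.1% of all genes). The 22 epithelial markers had 14.85 and 15.72 against 15.71 and 15.66 (0 of 22; 0 and 2), and the 15 immune cell markers 14.54 and 14.24 against 13.74 and 14.45 (0 of 15; 2 and 0). Cd3e, Marco, Nkg7 and S100a8 were at the lowest value in both Axin2:Pdgfra libraries, as was the endothelial Prox1. The 7 mesothelial markers had 8.66 and 10.13 against 13.59 and 12.74, with 1 of 7 past the threshold, beside 0.522% of all genes that fell. For 5 of them both Wnt2 libraries lay below both Axin2:Pdgfra libraries, beside 24% of all genes. The gene that fell was Upk1b, a uroplakin at 5.55 and 5.92 in Wnt2 and 13.45 and 12.64 in Axin2:Pdgfra (-7.31 ± 0.70, adjusted p = 0.000171), which alone made up nearly all of the Axin2:Pdgfra sums. Msln (1.78 against 4.37 on average, adjusted p = 0.611) and Lrrn4 (2.64 against 5.45, 0.503) were low in both lineages, and Gpm6a was 7.51 against 3.39 (0.201). Schwann cell and neuronal, erythroid and chondrocyte markers gave 0 of 7, 0 of 6 and 0 of 4, with log2 summed levels of 10.26 and 10.62 against 10.18 and 11.34, 11.61 and 9.14 against 11.31 and 10.09, and 11.31 and 11.06 against 10.18 and 8.71. The part of other cells in the results was not tested.

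Signs of handling and of RNA also moved with the lineages. Of 22 dissociation and immediate early genes, 0 passed with limma, but 13 were lower in Wnt2 at an unadjusted p under 0.05, beside 6.1% of all genes, and 17 had both Wnt2 libraries below both Axin2:Pdgfra libraries, beside 24%, with median levels of 12.40 and 12.78 against 13.38 and 13.57. Ier2 averaged 11.22 against 12.70 (adjusted p = 0.243) and Myc 5.19 against 10.30 (0.284). Heat shock genes (median -0.53), interferon response genes (-0.48) and cell cycle genes (0.15) had 0 calls with limma among 14, 17 and 10 (0 and 4, 0 and 1, and 0 and 0 higher and lower at an unadjusted p under 0.05, beside 7.12% and 6.1% of all genes). In a list added after the values were seen, 63 of 83 ribosomal protein genes had both Wnt2 libraries below both Axin2:Pdgfra libraries (median -0.56), beside 24% of all genes. Of the 83, 1 fell past the threshold, beside 0.522% of all genes that fell. It was Rpl29 (6.12 and 5.03 against 10.71 and 10.86, adjusted p = 0.00456), which has many processed copies that could share its reads. Of 30 genes of the mitochondrial genome, also added later, 1 fell past the threshold, beside 0.522% of all genes that fell. It was the ribosomal RNA mt-Rnr1 (17.72 in both against 18.72 in both, adjusted p = 0.00324), at the top of the scale where values follow ranks. The part of these shifts in the other results was not tested.

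Differences rose with transcript length. In 5 groups of nearly equal size, from the genes with the shortest to those with the longest annotated transcript, the median difference was -0.43, -0.17, 0.02, 0.24 and 0.48, and the number of genes that rose was 0, 0, 1, 3 and 11, whereas those that fell were spread as 9, 19, 13, 12 and 21. The median longest transcript was 6611 nt for genes that rose, 3628 nt for genes that fell and 3293.5 nt for all genes tested. With this trend removed, 93 genes passed, 12 higher and 81 lower, and 80 of these were among the 90. Macf1, Limch1 and Epas1 kept their calls, Macf1 with a difference of 0.74 in place of 1.27 (adjusted p = 0.0467), as did 11 of the 12 adventitial genes, while Prex2, Zbtb20, Akap5 and Gxylt1 lost theirs. The cause of the trend was not tested.

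**Figure D5:**
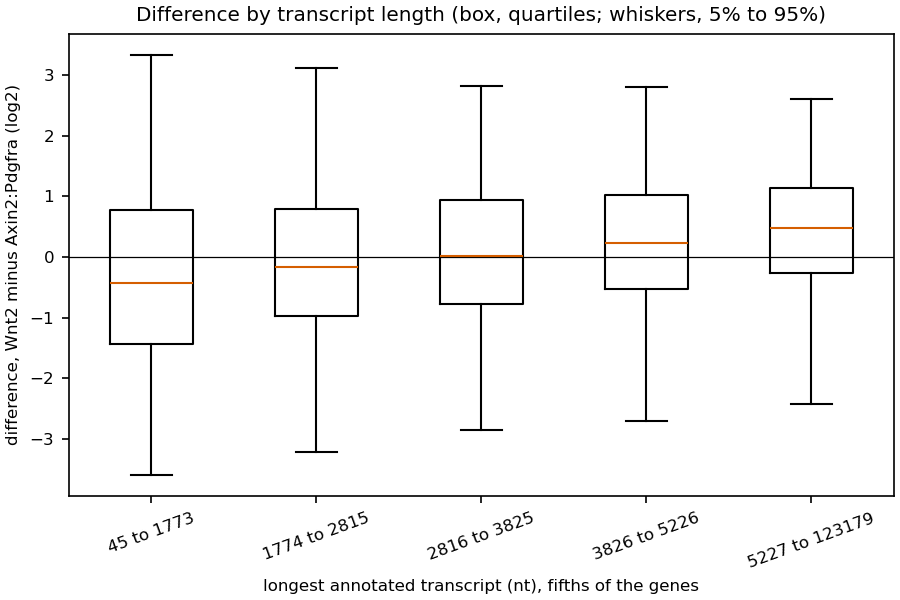
Difference between the lineages (Wnt2 minus Axin2:Pdgfra, log2, vertical axis) in 5 groups of genes by the length of their longest annotated transcript (nt, horizontal axis); boxes are quartiles with the median, whiskers the range from 5% to 95% of the genes. The medians climb from -0.43 in the group of the shortest transcripts to 0.48 in that of the longest.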

How the data were processed

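RNA-seq tables of 10 libraries, 2 for each of 5 sorted lineages, were used. The submitters' processing notes name STAR, limma and the mouse build mm9; versions, annotation, counting and strand use were not given. The deposited values are a single log2 level per gene and library, a scale inferred from the values, and near-identical distributions make them look quantile-normalized by the authors; whether levels are per transcript length is unknown, so they are not compared between genes. Symbols came from GENCODE tables and matched 14720 of 14854 identifiers, and transcript lengths matched 14054 of the genes tested. All 10 libraries entered a limma 3.58.1 model (R 4.3.3; lmFit, eBayes with trend and robust) with 5 lineage means and 5 residual degrees of freedom. The contrast was two-sided, with Benjamini-Hochberg adjustment over 14177 genes and a threshold of 0.05. The test was tried on simulated data. Named genes were the label genes, called list members, up to 4 further members per list by size of difference, the 15 largest increases and decreases, the 8 smallest p-values and the 10 narrowest intervals, leaving out predicted genes and, for size and p, genes at the lowest value in both libraries of a group; some genes that this rule names are not reported here. The comparison and the 39 gene lists were chosen with earlier results of these data known. Lists are described by counts and medians, with no set test. Alternatives were filters, variance models, library weights, a replicate block, the index, a common floor, repeated quantile normalization, omission of X and Y, and each library left out.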

Additional observations from a re-analysis of the deposited data

How the results depend on the processing

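The number of genes that passed was 78 to 109 with other filters, the index as a factor, a common floor, quantile normalization again, X and Y left out or, chosen after seeing the data, the length trend removed. It was 18 (2 higher, 16 lower) in the fit of the 4 libraries alone and 192 (63 and 129) with library weights. Without trend and robust estimation it was 42 (10 and 32), of which only 20 were among the 90. Some calls that had held whichever library was left out were lost in that limma fit. They included C3 (adjusted p = 0.206), Myl9 (0.0816), Igfbp4 (0.0694), Serpinf1 (0.0629) and Enpp2 (0.0513). Macf1, Limch1 and Prex2 lost their calls there too. Leaving out each library gave 24 to 170 genes, 1 to 59 higher and 20 to 125 lower; the cause was not tested. The count with intervals within 1 log2 unit was 419 for the 4 libraries alone and 0 without trend and robust estimation, and 78 to 396 without single libraries. The replicate numbers gave no pairing, since the deviations of Wnt2 and Axin2:Pdgfra libraries correlated at 0.0202. A fit with a replicate block called 134 genes (33 higher, 101 lower), all 90 among them. Of the named genes, none that passed changed direction. Among named genes that did not pass, a difference reversed in 12 cases, each case being 1 gene in 1 setting, so some genes count more than once. With the length trend removed, the reversed differences were -0.15 (Fn1), -0.0149 (Itgb1), -0.23 (Nid1) and -0.0295 (Npnt). Over the fits without a library, the differences ranged from -0.71 to 1.79 for Axin2 (negative without Axin2:Pdgfra library 2), -0.0321 to 0.13 for Inmt, -0.11 to 0.25 for Nid1, -5.06 to 1.10 for Cxcl13, -0.86 to 3.94 for Il34, -2.93 to 1.78 for Igfbp2 and -0.11 to 0.43 for Npnt; the cause was not tested. The tables hold no counts, so what depth limits cannot be given.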
